A study of Homo sapiens with 34 samples.

Results

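The genes described here are 43 genes of DNA replication, out of 26336 genes in a table of RNA-seq read counts from human prostate cell lines. They were chosen by symbol for what their proteins do: origin licensing (MCM2 to MCM7, CDC6, CDT1, ORC1 and ORC6), activation of the replicative helicase (MCM10, GINS1 to GINS4 and CDC45), the sliding clamp and its loader (PCNA and RFC1 to RFC5), polymerases and primase (POLA1, POLA2, PRIM1, POLD1, POLD2, POLD3, POLE and POLE2), strand joining (FEN1 and LIG1), nucleotide supply (RRM1, RRM2, TYMS and TK1), single-strand binding (RPA1, RPA2 and RPA3), chromatin behind the fork (CHAF1A, CHAF1B and UHRF1) and the transcription factor E2F1. The choice was made with earlier results of these data known, among them opposite androgen effects in LNCaP and VCaP. All 43 were found in the table, and all 43 passed the filter on low counts in every fit. The lowest count of any of them in any library was 20 reads.

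The study grew 4 established prostate lines on tissue culture plastic or on a coating of amorphous calcium phosphate (ACP), a mineral surface, and sequenced poly(A)-selected RNA. RWPE is non-tumorigenic prostate epithelium grown in serum-free keratinocyte medium, LNCaP came from a lymph node metastasis, and VCaP and MDAPCa2a came from bone metastases. Each line was kept in its usual (control) medium, in serum stripped of steroid hormones with charcoal and dextran, or in stripped serum plus androgen, called DHT in sample titles and testosterone in treatment labels. The labels give the androgen as 100 mM, a unit that may be a slip and could not be checked here, so the dose is uncertain. The 34 libraries make 17 groups of 2 libraries, except 3 for RWPE on ACP with androgen and 1 for VCaP on plastic in stripped serum. LNCaP and VCaP were grown on plastic in control and stripped medium and on ACP in all 3 media. RWPE was grown in control medium on both surfaces and on ACP with androgen, and has no stripped group. MDAPCa2a was grown on plastic in control and stripped medium, where the plastic carried a commercial protein coating that the ACP plates lacked, and on ACP in stripped medium with and without androgen. Plastic control cells are labelled continuous culture and all other groups day 4, although the treatment protocol describes 4 days of culture for plastic control too, so its culture time is uncertain. Each line is a single established line, so a difference between lines is a difference between these cultures. The labels do not say whether replicates came from separate cultures, so p-values measure only the spread between libraries, which may be technical.

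Replication starts at origins, where ORC, CDC6 and CDT1 load the MCM helicase before S phase. CDC45 and the GINS complex then join the MCM ring with the help of MCM10, primase and polymerase alpha lay down primers, and polymerases delta and epsilon extend them on the PCNA clamp that RFC loads. In dividing cells most of these genes are transcribed as S phase approaches, under E2F transcription factors that the retinoblastoma protein holds back, and prostate lines that respond to androgen can either start or stop dividing when androgen is added.

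Because E2F factors are known to control many replication genes, RefSeq promoter windows (GRCh38.p14, 250 bases before to 50 after the annotated start, 300 bases in all) were searched for the E2F octamers TTTCCCGC, TTTCGCGC, TTTGCCGC and TTTGGCGC on both strands. A window was given for 37 of the 43. At least 1 octamer stood in 19 of these 37 genes (51.4%), against 3.99% of 27305 genes with a window and 5.08% of the 16183 of them that are in the count table. Matches on opposite strands can overlap and were then counted separately. The CCAAT box (CCAAT, either strand) stood in 24 of 37 (64.9%, against 39.7% of 27305), and the hexamers TTTGAA and TTCGAA, known as CHR elements of mitotic genes, in 2 of 37 (5.41%, against 19.5%).

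The following 150 bases before the start are shown 5′ to 3′ on the gene's strand for 8 genes that hold an octamer, with the octamer in capitals. E2F1, CDT1, PCNA, POLA2 and TYMS passed the test for a change with androgen in both LNCaP and VCaP, RFC3 passed it in LNCaP and not in VCaP, and POLE and POLA1 passed it in neither, as measured below.
E2F1: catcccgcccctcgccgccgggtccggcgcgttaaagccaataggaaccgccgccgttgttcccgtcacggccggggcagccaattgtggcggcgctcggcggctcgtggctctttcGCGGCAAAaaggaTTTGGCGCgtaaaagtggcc
CDT1: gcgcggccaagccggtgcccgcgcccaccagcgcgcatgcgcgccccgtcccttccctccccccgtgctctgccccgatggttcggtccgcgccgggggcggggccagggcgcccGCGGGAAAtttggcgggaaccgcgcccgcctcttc
PCNA: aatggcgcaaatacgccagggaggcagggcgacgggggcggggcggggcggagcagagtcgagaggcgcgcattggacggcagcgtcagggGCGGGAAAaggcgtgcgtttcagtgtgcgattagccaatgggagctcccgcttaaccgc
POLA2: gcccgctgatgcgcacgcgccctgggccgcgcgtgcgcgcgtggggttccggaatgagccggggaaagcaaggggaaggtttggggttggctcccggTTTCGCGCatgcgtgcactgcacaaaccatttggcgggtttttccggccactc
TYMS: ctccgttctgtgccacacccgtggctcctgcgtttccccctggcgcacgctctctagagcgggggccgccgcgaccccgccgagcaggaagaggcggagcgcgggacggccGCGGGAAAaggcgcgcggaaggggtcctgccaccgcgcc
RFC3: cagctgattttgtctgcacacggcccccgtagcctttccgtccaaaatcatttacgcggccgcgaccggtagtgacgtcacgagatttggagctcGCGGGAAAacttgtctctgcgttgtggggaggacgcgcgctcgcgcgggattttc
POLE: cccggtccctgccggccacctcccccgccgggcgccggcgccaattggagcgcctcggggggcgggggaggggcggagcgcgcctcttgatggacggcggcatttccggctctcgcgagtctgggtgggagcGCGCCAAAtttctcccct
POLA1: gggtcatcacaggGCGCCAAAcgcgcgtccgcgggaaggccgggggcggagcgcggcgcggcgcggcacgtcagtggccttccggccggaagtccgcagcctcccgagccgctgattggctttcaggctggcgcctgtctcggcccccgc
These stretches lie at chr20:33686386-33686535 (minus strand) for E2F1, chr16:88803639-88803788 (plus strand) for CDT1, chr20:5126623-5126772 (minus strand) for PCNA, chr11:65261812-65261961 (plus strand) for POLA2, chr18:657503-657652 (plus strand) for TYMS, chr13:33817999-33818148 (plus strand) for RFC3, chr12:132687343-132687492 (minus strand) for POLE and chrX:24693768-24693917 (plus strand) for POLA1, just upstream of each annotated gene. E2F1 holds a pair of octamers that begin 33 and 20 bases before the start. An octamer was present in 8 of the 14 genes with a window that were called in both LNCaP and VCaP, in 7 of 14 called in 1 of these lines and in 4 of 9 called in neither. A match is a description of the letters and not a measured binding site.

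Total counts ranged from 15440141 to 44779246 reads per library, and the 8 plastic control libraries were deeper than most of the other 26. The 43 genes took 0.107% to 0.57% of the counts. Levels are CPM, counts relative to a library's total, with TMM scaling over all libraries. The basal keratin KRT5 was at 2348 to 10150 CPM in RWPE and at 13.0 CPM or less elsewhere, and ERG was at 126 CPM or more in VCaP only. The summed luminal markers were at 1267 to 15720 CPM in the 3 cancer lines and at 798 to 1451 CPM in RWPE, with overlapping ranges. The liver transcript FGG set the 8 plastic control libraries (1.41 to 2.84 CPM) apart from the others (up to 0.0323 CPM). FGB (0.717 to 2.63 CPM against up to 0.146 CPM) and APOA1 (1.46 to 7.035 CPM against up to 0.438 CPM) did so too. ALB, the most abundant of the liver markers, overlapped (1.88 to 130 CPM against 0 to 322 CPM). Summed lymphoid markers were separate (4.69 to 17.01 CPM against 0 to 4.56 CPM), almost all of it CD74. PTPRC and CD3E stayed at 0.175 CPM or less, with overlapping ranges. The sample titles name no batch. In each comparison that sets plastic control against another kind of group, these differences between libraries and the group cannot be told apart. Libraries also differed within groups. The mean log2 CPM of the 43 genes, relative to the mean of the line, was 0.04 and 0.77 in the VCaP plastic control replicates, -1.10 and -0.53 in the LNCaP androgen replicates, and -1 and 0.03 in the MDAPCa2a replicates on ACP in stripped serum. In bulk RNA, fewer dividing cells and less replication RNA per cell cannot be told apart.

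**Figure D1:**
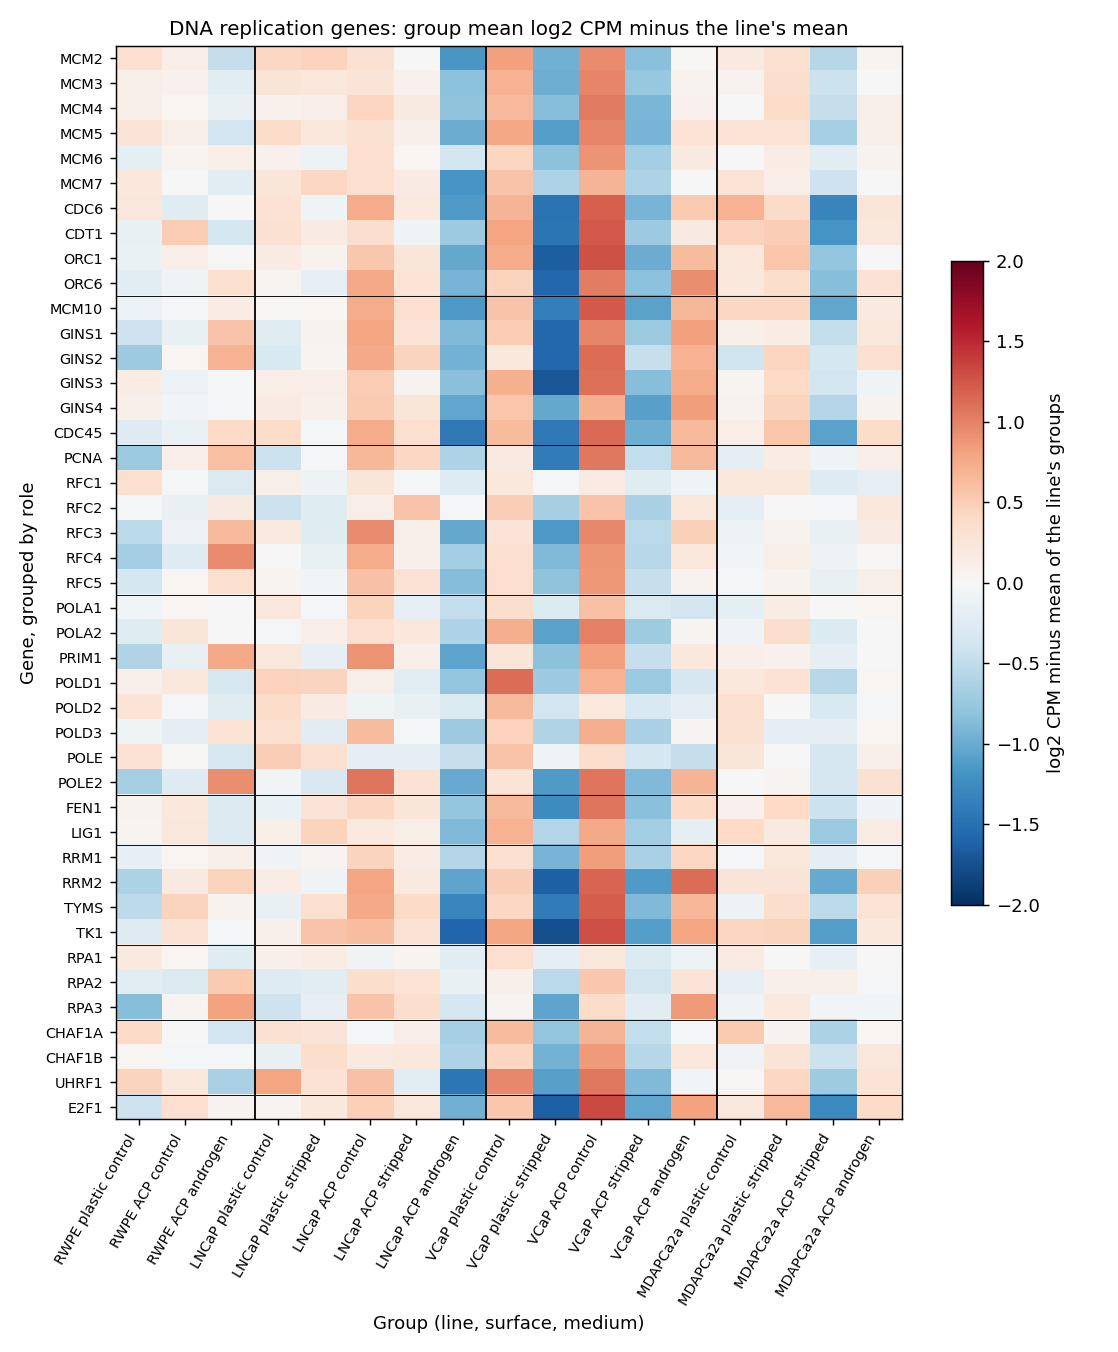
Group mean log2 CPM of the 43 genes minus the mean of the line's groups, with genes in rows by role and the 17 groups in columns. The LNCaP column for androgen on ACP is blue for nearly all genes, and the VCaP columns for stripped serum are blue on both surfaces while the VCaP androgen column is mostly pale or red.

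The first question is what added androgen did to replication genes on ACP. In LNCaP, 27 of the 43 genes fell with androgen against stripped serum and none rose. In VCaP, 23 rose and none fell. A gene is called where edgeR's quasi-likelihood test gives a Benjamini-Hochberg adjusted p below 0.05. Of all genes tested, 3.96% were called lower and 3.77% higher in LNCaP (7.73% in either direction, of 14656), and 8.67% higher and 8.8% lower in VCaP (17.5% in either direction, of 15614). The median log2 change of the 43 genes was -1.02 in LNCaP and 0.93 in VCaP, against -0.01 and -0.03 over all genes. All 43 changes were negative in LNCaP and 41 were positive in VCaP. Overlap was read from CPM scaled over all lines, as printed here. The libraries of the groups did not overlap for 43 genes in LNCaP (56% of all genes) and for 39 in VCaP (61.4%). POLD2 in LNCaP was separate by less than the rounding, with 281.6 CPM in stripped replicate 2 and androgen replicate 2. Each count rests on few libraries. The LNCaP count was 0 without stripped replicate 1, 1 without stripped replicate 2, 3 without androgen replicate 1 and 33 without androgen replicate 2, with medians of -1.38 to -0.74, and it was 11 in a fit of all 4 lines. The VCaP count was 0 without stripped replicate 1, 17 without stripped replicate 2, 15 without androgen replicate 1 and 0 without androgen replicate 2, with medians of 0.73 to 1.20. Summed luminal markers, which include androgen-induced genes, were at 6239 and 7008 CPM with androgen and 3220 and 3303 CPM without it in LNCaP, and at 7901 and 12760 CPM against 4234 and 4540 CPM in VCaP. Summed liver markers, almost all ALB, were at 15.7 and 65.4 CPM with androgen and 268 and 322 CPM without it in VCaP, and the part of this difference in the result was not tested.

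**Figure D2:**
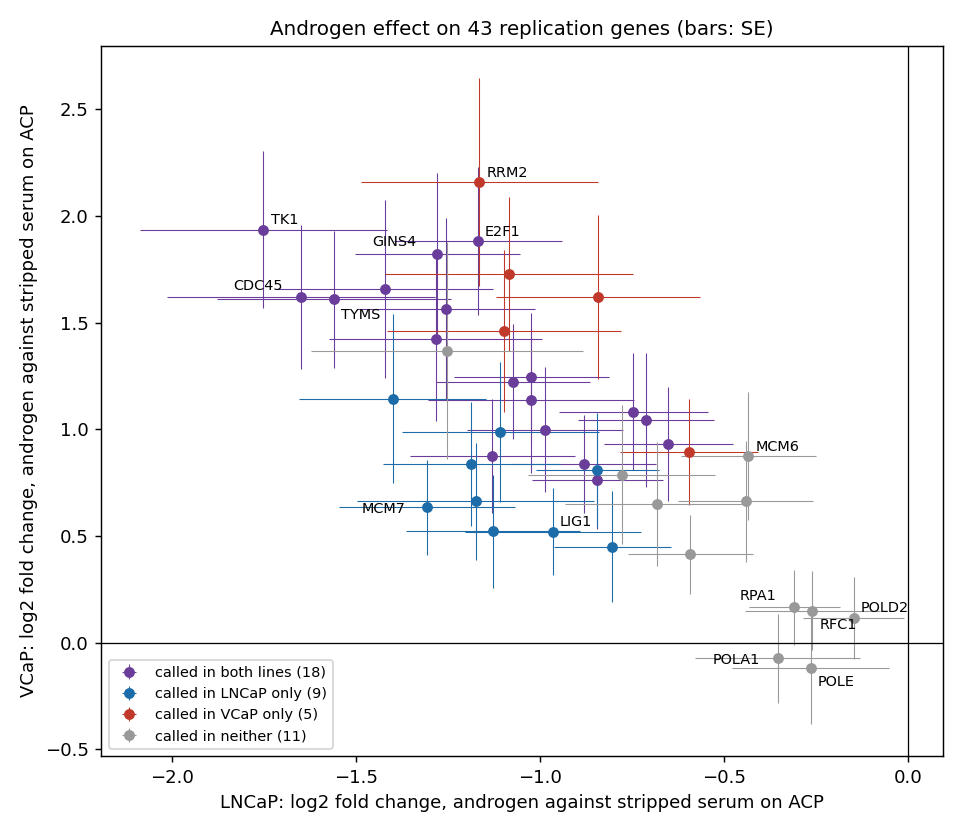
Each point is 1 of the 43 genes, with its log2 change with androgen against stripped serum on ACP in LNCaP (x axis) and in VCaP (y axis), bars of 1 SE, and colours for the lines in which it was called. All points lie left of 0, 41 lie above 0, and POLA1, POLE, POLD2, RFC1 and RPA1 lie near the origin.

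Among the 10 licensing genes, 8 fell in LNCaP and 8 rose in VCaP. CDC6, the ATPase that loads the MCM ring with CDT1, was at 47.2 and 53.1 CPM in stripped serum and 14.2 and 27.6 CPM with androgen in LNCaP, and fell by 1.28 ± 0.29 on the log2 scale (SE, adjusted p 0.0238). Values after ± are standard errors here and below, and signed values are log2 changes. In VCaP CDC6 was at 18.8 and 31.7 CPM without and 55.5 and 80.1 CPM with androgen, a log2 change of 1.42 ± 0.39 (SE, adjusted p 0.0321). The androgen libraries lay below both stripped libraries in LNCaP and above them in VCaP. CDT1, its partner, was at 46.4 and 42.1 CPM without and 23.8 and 33.1 CPM with androgen in LNCaP, a log2 change of -0.65 ± 0.17 (SE, adjusted p 0.0455). In VCaP CDT1 went from 9.02 and 8.40 CPM to 13.7 and 19.4 CPM (0.93 ± 0.27, adjusted p 0.0393). Again the groups did not overlap in either line. Such separation held for 56% of all genes in LNCaP and 61.4% in VCaP, the background for each gene given below too. ORC1, the ATPase of the origin recognition complex, was at 16.01 and 17.8 CPM without and 5.49 and 8.85 CPM with androgen in LNCaP (-1.25 ± 0.24, adjusted p 0.0122). In VCaP ORC1 was at 3.71 and 7.50 CPM without and 13.98 and 19.2 CPM with androgen (1.56 ± 0.43, adjusted p 0.0335), with the stripped replicates differing by more than their LNCaP counterparts. MCM2, a subunit of the helicase ring, was at 127 and 116 CPM in stripped serum and 41.2 and 71.1 CPM with androgen in LNCaP, and fell by 1.13 ± 0.22 on the log2 scale (SE, adjusted p 0.0138). In VCaP MCM2 was at 77.8 and 74.9 CPM without and 127 and 153 CPM with androgen (0.88 ± 0.27, adjusted p 0.0497), so that all androgen libraries lay above the stripped ones. The other ring subunits MCM3, MCM4 and MCM5 were called in both lines. MCM7 was called in LNCaP (-1.31 ± 0.24, adjusted p 0.00931) and not in VCaP (0.63 ± 0.22, adjusted p 0.077). MCM6 was called in neither, with -0.43 ± 0.18 (SE, adjusted p 0.174) in LNCaP and 0.88 ± 0.30 (SE, adjusted p 0.0705) in VCaP. ORC6 was called in VCaP (1.73 ± 0.36, adjusted p 0.0118) and not in LNCaP (-1.08 ± 0.34, adjusted p 0.0743).

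Of the 6 genes that turn the loaded ring into an active helicase, 4 fell in LNCaP and 5 rose in VCaP. MCM10 was at 30.1 and 31.8 CPM in stripped serum and 7.84 and 15.5 CPM with androgen in LNCaP, a log2 change of -1.42 ± 0.29 (SE, adjusted p 0.0163). Its VCaP levels were 8.10 and 16.8 CPM without and 32.2 and 46.3 CPM with androgen (1.66 ± 0.42, adjusted p 0.0245). The lower androgen library in VCaP held about as much MCM10 as the LNCaP stripped libraries. CDC45, the helicase cofactor, went from 26.2 and 24.1 CPM to 4.70 and 11.5 CPM in LNCaP, and fell by 1.65 ± 0.36 on the log2 scale (SE, adjusted p 0.0218). CDC45 in VCaP was at 19.9 and 30.00 CPM in stripped serum and 63.3 and 89.8 CPM with androgen (1.62 ± 0.34, adjusted p 0.0118). Next to TK1, CDC45 had the largest fall of the 43 genes in LNCaP. GINS2, a subunit of the GINS tetramer, was at 33.6 and 32.3 CPM without and 11.4 and 13.8 CPM with androgen in LNCaP (-1.40 ± 0.25, adjusted p 0.00909), with close replicates. In VCaP GINS2 was at 5.17 and 7.09 CPM without and 11.9 and 15.2 CPM with androgen, without overlap, but was not called (1.14 ± 0.40, adjusted p 0.0733). GINS4 was called in both lines, at -1.28 in LNCaP and 1.82 in VCaP on the log2 scale, while GINS1 and GINS3 were called in VCaP only.

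The clamp and clamp loader changed less evenly, with 3 of 6 genes falling in LNCaP and 2 rising in VCaP. PCNA, the ring that holds polymerases on DNA, was at 194 and 172 CPM in stripped serum and 70.3 and 112 CPM with androgen in LNCaP, a log2 change of -1.03 ± 0.28 (SE, adjusted p 0.0487). In VCaP PCNA was at 102 and 158 CPM without and 229 and 341 CPM with androgen (1.14 ± 0.34, adjusted p 0.0459). RFC3, a small subunit of the loader, was at 39.5 and 41.6 CPM without and 13.99 and 24.2 CPM with androgen in LNCaP (-1.11 ± 0.27, adjusted p 0.0302). RFC3 in VCaP was at 22.9 and 41.1 CPM without and 52.1 and 74.7 CPM with androgen, not called (0.99 ± 0.33, adjusted p 0.0641). For both genes the androgen libraries stood clear of the stripped ones, below them in LNCaP and above them in VCaP. RFC5 was called in LNCaP (-1.13) and RFC2 in VCaP (0.90). RFC4 was called in neither. RFC1, the large subunit, had log2 changes of -0.26 ± 0.18 (SE, adjusted p 0.428) in LNCaP and 0.15 ± 0.18 (SE, adjusted p 0.592) in VCaP.

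The polymerase genes held 6 of the 11 genes that were called in neither line. Of 8, 2 fell in LNCaP (POLA2 and PRIM1) and 1 rose in VCaP (POLA2). POLA2, the regulatory subunit of polymerase alpha, had log2 changes of -0.84 ± 0.18 (SE, adjusted p 0.0176) and 0.76 ± 0.23 (SE, adjusted p 0.0482). POLA1, the catalytic subunit of the same enzyme, was at 15.1 and 18.2 CPM in stripped serum and 13.4 and 12.9 CPM with androgen in LNCaP (-0.35 ± 0.23, adjusted p 0.374). In VCaP POLA1 was at 25.8 and 27.2 CPM without and 26.3 and 24.1 CPM with androgen (-0.07 ± 0.21, adjusted p 0.838), and there the groups overlapped. PRIM1, the catalytic primase subunit, was at 16.5 and 18.9 CPM without and 6.95 and 8.91 CPM with androgen in LNCaP, a log2 change of -1.17 ± 0.32 (SE, adjusted p 0.0496) that lay just under the threshold. In VCaP PRIM1 was at 18.4 and 26.97 CPM without and 30.6 and 41.1 CPM with androgen (0.66 ± 0.27, adjusted p 0.118). POLE2, a subunit of polymerase epsilon, had the lowest levels of the genes given by library. It was at 4.30 and 4.10 CPM without and 1.18 and 2.38 CPM with androgen in LNCaP (-1.25 ± 0.37, adjusted p 0.0633) and at 1.61 and 4.92 CPM without and 7.62 and 9.33 CPM with androgen in VCaP (1.37 ± 0.51, adjusted p 0.0885). Its changes were larger than the median of the 43 genes in both lines, with large standard errors, and neither was called. POLE, the catalytic subunit of the same polymerase, changed by -0.26 ± 0.21 (SE, adjusted p 0.492) in LNCaP and -0.12 ± 0.26 (SE, adjusted p 0.785) in VCaP. POLD1, POLD2 and POLD3, subunits of polymerase delta, were called in neither line, at -0.59, -0.15 and -0.68 in LNCaP and 0.41, 0.12 and 0.65 in VCaP.

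Both strand-joining genes fell in LNCaP and 1 of them rose in VCaP. FEN1, the nuclease that trims Okazaki fragments, was at 74.6 and 79.3 CPM in stripped serum and 32.2 and 44.5 CPM with androgen in LNCaP (-1.02 ± 0.21, adjusted p 0.0163). FEN1 in VCaP went from 27.4 and 30.5 CPM to 57.00 and 80.2 CPM (1.25 ± 0.30, adjusted p 0.0207). LIG1, the ligase that seals them, was at 20.4 and 23.3 CPM without and 8.22 and 14.4 CPM with androgen in LNCaP (-0.97 ± 0.24, adjusted p 0.033). The groups were separate in each case. In VCaP LIG1 was at 30.3 and 30.6 CPM without and 42.9 and 44.4 CPM with androgen (0.52 ± 0.20, adjusted p 0.0999), with close replicates and a smaller change than that of FEN1.

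Nucleotide supply held the gene with the largest change in each line, with 3 of 4 genes falling in LNCaP and 4 of 4 rising in VCaP. TK1, which salvages thymidine, had the largest fall of the 43 genes in LNCaP. It was at 148 and 148 CPM in stripped serum and 25.4 and 63.6 CPM with androgen, 3.37-fold lower in the fit, a fall of 1.75 ± 0.34 on the log2 scale (SE, adjusted p 0.0119). TK1 in VCaP was at 43.9 and 63.9 CPM without and 146 and 265 CPM with androgen (1.94 ± 0.37, adjusted p 0.00866). RRM2, the S-phase subunit of ribonucleotide reductase, had the largest rise in VCaP, from 35.7 and 83.1 CPM to 204 and 326 CPM, 4.46-fold in the fit (2.16 ± 0.49, adjusted p 0.0164). In LNCaP RRM2 was at 136 and 163 CPM without and 41.02 and 94.4 CPM with androgen, and its log2 change just missed the threshold (-1.16 ± 0.32, adjusted p 0.0506). The androgen replicates of TK1 and RRM2 lay far apart in both lines, yet did not reach the stripped libraries. TYMS, thymidylate synthase, was at 61.2 and 58.95 CPM without and 12.03 and 29.3 CPM with androgen in LNCaP (-1.56 ± 0.32, adjusted p 0.0157). Its VCaP levels were 26.6 and 30.1 CPM without and 62.1 and 110.4 CPM with androgen (1.61 ± 0.32, adjusted p 0.0102). RRM1, the large reductase subunit, was called in both lines with smaller changes, -0.75 in LNCaP and 1.08 in VCaP.

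Of the RPA trimer, which coats single-stranded DNA, RPA3 was the member called, in both lines. RPA3 was at 32.3 and 37.4 CPM in stripped serum and 19.4 and 23.7 CPM with androgen in LNCaP (-0.71 ± 0.18, adjusted p 0.0385). In VCaP RPA3 was at 7.22 and 11.7 CPM without and 19.3 and 19.8 CPM with androgen (1.04 ± 0.31, adjusted p 0.0465), above the level of control medium (17 and 11.4 CPM). RPA1 and RPA2 were not called, at -0.31 and -0.44 in LNCaP and 0.17 and 0.66 in VCaP. The 3 chromatin genes all fell in LNCaP and none was called in VCaP. CHAF1B, a subunit of the histone chaperone CAF-1, was at 40.7 and 38.6 CPM without and 20.3 and 24.4 CPM with androgen in LNCaP (-0.84 ± 0.17, adjusted p 0.0138) and at 31.6 and 40.7 CPM without and 55.9 and 70.8 CPM with androgen in VCaP (0.81 ± 0.27, adjusted p 0.0623). UHRF1, which brings the maintenance methyltransferase to new DNA, went from 21.9 and 20.4 CPM to 6.84 and 11.9 CPM in LNCaP (-1.19 ± 0.24, adjusted p 0.0152). UHRF1 in VCaP was at 14.5 and 16.7 CPM without and 28.3 and 27.6 CPM with androgen (0.84 ± 0.29, adjusted p 0.0715). Both genes had separate groups in VCaP too. E2F1, the regulator, was at 57.2 and 52.9 CPM without and 19.5 and 30.00 CPM with androgen in LNCaP, and fell by 1.17 ± 0.23 on the log2 scale (SE, adjusted p 0.0128). In VCaP E2F1 was at 24.04 and 24.1 CPM without and 71.3 and 106 CPM with androgen (1.88 ± 0.35, adjusted p 0.00763), with nearly equal stripped replicates.

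**Figure D3:**
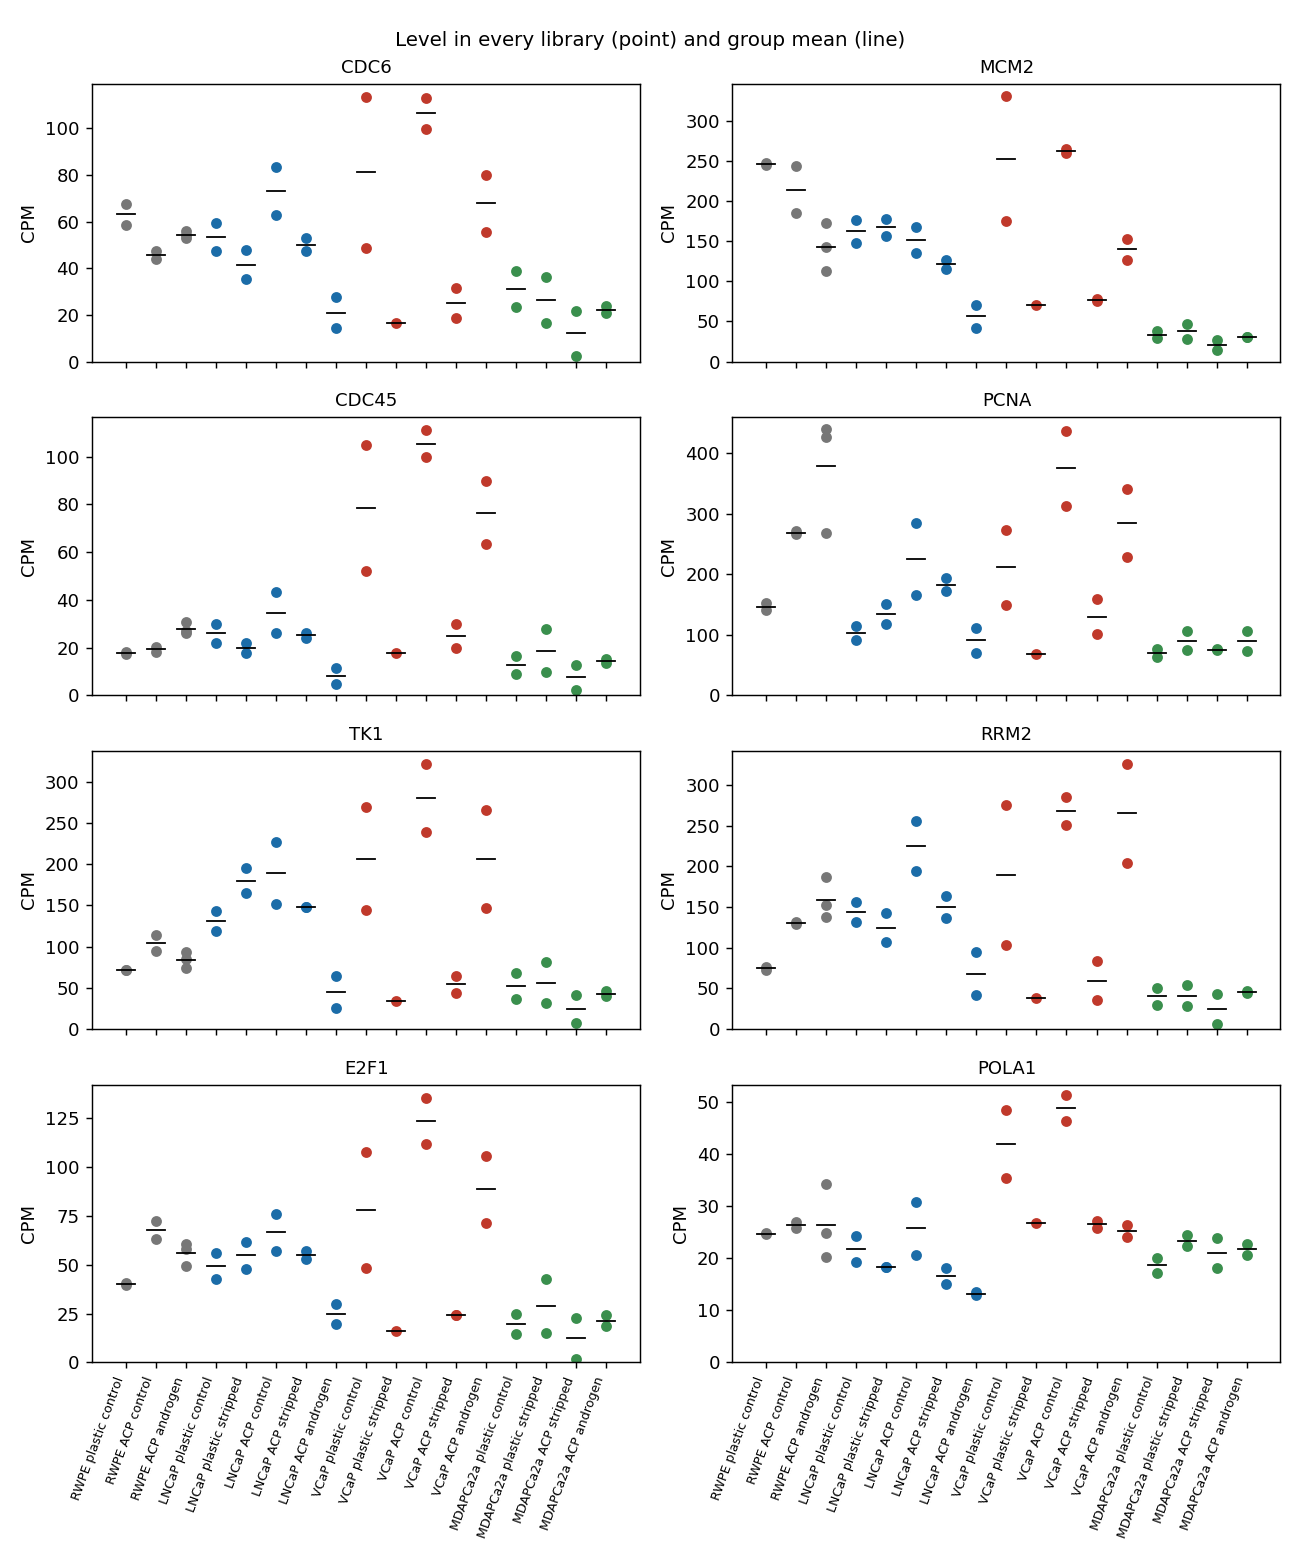
CPM of 8 of the genes in every library (points) with group means (lines), by group and coloured by line, on linear axes from 0. CDC6, MCM2, CDC45, PCNA, TK1, RRM2 and E2F1 were lower with androgen than in stripped serum in both LNCaP libraries and higher in both VCaP libraries on ACP, while POLA1 in VCaP stayed between 24.1 and 27.2 CPM in both media.

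The difference between the androgen effects of VCaP and LNCaP was tested as an interaction in a fit of all 34 libraries. Opposite effects in these lines were known when the genes were chosen, so the test describes the difference and is no independent support. The difference is VCaP minus LNCaP. It was called for 35 of the 43 genes, all higher in VCaP, against 5.39% of 17323 genes called in that direction, 5.51% in the opposite one and 10.9% in either. The median difference was 1.92 on the log2 scale, against -0.05 over all genes, and all 43 differences were positive. TK1 had the largest (3.66 ± 0.74, adjusted p 0.00287), followed by RRM2 (3.30 ± 0.78, adjusted p 0.00794) and CDC45 (3.25 ± 0.73, adjusted p 0.00536). Called in both lines were 18 genes, in LNCaP only 9, in VCaP only 5 and in neither 11. The 9 were MCM7, GINS2, RFC3, RFC5, PRIM1, LIG1, CHAF1A, CHAF1B and UHRF1, and the interaction was called for each of them except CHAF1A. The 5 were GINS1, GINS3, RFC2, RRM2 and ORC6, all called in the interaction. Not called in the interaction were CDT1, RFC1, POLA1, POLD1, POLD2, POLE, RPA1 and CHAF1A. CDT1, although called in each line, had a difference of 1.56 ± 0.62 (SE, adjusted p 0.112), and POLE had the smallest (0.13 ± 0.38, adjusted p 0.895). Leaving out 1 library gave 23 to 34 genes, with the lowest count without VCaP stripped replicate 1. GC content of the transcripts was nearly unrelated to these changes over the 43 genes, with Spearman's rho of -0.04 in LNCaP, -0.11 in VCaP and -0.07 for the difference, given as a description across genes that share the same libraries.

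Control medium on the same surface gives a reference level for these changes. VCaP had 18 genes lower in stripped serum than in control medium on ACP and none higher, while 0.685% of all genes tested were called lower and 0.82% in either direction. The median log2 change of the 43 genes was -1.56 and that of all genes was 0.08. All 43 changes were negative, and 41 had an unadjusted p below 0.05. The shares of all genes in this paragraph are for adjusted p in each line's own edgeR fit, and not for unadjusted p or other settings. The count was 0 without stripped replicate 1 and without either control replicate, and reached 39 in a fit of all lines. In LNCaP no replication gene was called for the same contrast by edgeR, with 8 at an unadjusted p below 0.05, a median of -0.33 and 5.37% of all genes called (3.28% higher, 2.09% lower). DESeq2 called 2 of them, and leaving out 1 library gave 0 to 4. The 2 contrasts in each line share the stripped libraries, so their values are given side by side and were not correlated.

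In VCaP, TK1 was at 322 and 239.6 CPM in control medium on ACP, and stripped serum was lower by a log2 change of -2.36 ± 0.37 (SE, adjusted p 0.0328), the largest fall of the 43. E2F1 was at 136 and 112 CPM in control medium (-2.34 ± 0.35, adjusted p 0.0328) and CDC45 at 111 and 99.8 CPM (-2.06 ± 0.34, adjusted p 0.0347). All of these control libraries lay above the androgen libraries for E2F1 and CDC45, while for TK1 the groups overlapped. Control and androgen libraries were separate for 57.8% of all genes in either direction. CDC6 was at 113 and 99.7 CPM (-2.05 ± 0.39, adjusted p 0.047) and TYMS at 131 and 112 CPM (-2.09 ± 0.33, adjusted p 0.0328). MCM2 was at 265 and 260.0 CPM (-1.76 ± 0.28, adjusted p 0.0328), CDT1 at 34.9 and 33.2 CPM (-1.95 ± 0.27, adjusted p 0.0299) and UHRF1 at 61.1 and 59.6 CPM (-1.93 ± 0.30, adjusted p 0.0328). FEN1 was at 116 and 102 CPM (-1.89 ± 0.30, adjusted p 0.0328), LIG1 at 80.5 and 86.2 CPM (-1.43 ± 0.20, adjusted p 0.0299) and CHAF1B at 102 and 92.00 CPM (-1.40 ± 0.27, adjusted p 0.049). Each of these genes stood higher in both control libraries than in either stripped library. The 2 groups were separate for 49.6% of all genes in either direction. ORC1, MCM10 and RRM2 were not called, with changes of similar size and wider errors. ORC1 was at 24.8 and 25.9 CPM (-2.15 ± 0.43, adjusted p 0.0529), MCM10 at 58.2 and 56.2 CPM (-2.18 ± 0.42, adjusted p 0.0502) and RRM2 at 286 and 251 CPM (-2.15 ± 0.49, adjusted p 0.0683). PCNA was at 437 and 313 CPM, RFC3 at 90.1 and 83.9 CPM, PRIM1 at 59.5 and 48.4 CPM, POLE2 at 12.7 and 9.54 CPM, GINS2 at 20.9 and 15.5 CPM and POLA1 at 46.4 and 51.4 CPM. Their log2 changes were -1.51, -1.42, -1.23, -1.74, -1.55 and -0.86. POLA1 was higher in both control libraries than in the stripped and androgen libraries, which overlapped each other.

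With androgen, the VCaP genes lay below or near the level of control medium. Against control medium on ACP, 4 of the 43 genes were lower with androgen (POLA1 -0.94, POLA2 -0.93, POLD1 -1.005 and LIG1 -0.91 on the log2 scale) and none higher, with 2.28% of all genes called lower and 5.99% in either direction. POLD1, which had the largest of these falls, was at 89.8 and 94.3 CPM in control medium and 45.5 and 44.9 CPM with androgen (adjusted p 0.0163). The median over the 43 genes was -0.57, and 40 changes were negative. RRM2 (0.00 ± 0.47, adjusted p 0.999), GINS4 (0.15) and RPA3 (0.48) had the 3 positive values. No call was left without any 1 of the libraries, 12 were called without the count filter and 10 by DESeq2.

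In LNCaP most of the genes lay far below control medium with androgen. Against control medium on ACP, 37 of the 43 were lower with androgen and none higher, where 7.38% of all genes were called lower, 7.76% higher and 15.1% in either direction. The median log2 change was -1.35, and leaving out 1 library gave 25 to 38 called. CDC45 and TK1 fell most. CDC45 was at 43.3 and 25.9 CPM in control medium and 4.70 and 11.5 CPM with androgen (-2.13 ± 0.37, adjusted p 0.00477). TK1 was at 227 and 152 CPM in control medium (-2.13 ± 0.34, adjusted p 0.00347), POLE2 at 8.76 and 6.02 CPM (-2.09 ± 0.37, adjusted p 0.00535) and PRIM1 at 40.4 and 23.1 CPM (-2.04 ± 0.33, adjusted p 0.00351). Control replicate 1 was the higher of the pair for each of these. UHRF1 was at 41.3 and 33.1 CPM (-2.02 ± 0.24, adjusted p 0.000967), TYMS at 92.4 and 65.96 CPM (-1.98 ± 0.32, adjusted p 0.00374) and RFC3 at 85.3 and 60.05 CPM (-1.97 ± 0.27, adjusted p 0.00184). MCM10 was at 50.2 and 33.5 CPM (-1.88 ± 0.30, adjusted p 0.00331), CDC6 at 83.4 and 62.9 CPM (-1.85 ± 0.29, adjusted p 0.00344) and GINS2 at 54.1 and 31.03 CPM (-1.79 ± 0.26, adjusted p 0.00217). RRM2 was at 256 and 194 CPM (-1.77 ± 0.33, adjusted p 0.0063), ORC1 at 22.5 and 18.98 CPM (-1.57 ± 0.24, adjusted p 0.00304) and MCM2 at 168 and 135 CPM (-1.47 ± 0.23, adjusted p 0.00286). In all of these both androgen libraries lay below both control libraries, where the groups were separate for 56.7% of all genes in either direction. E2F1 was at 75.9 and 57.1 CPM, PCNA at 284 and 166 CPM and FEN1 at 105 and 71.4 CPM, with log2 changes of -1.46, -1.35 and -1.24. CDT1 was at 53.7 and 65.96 CPM, LIG1 at 24.4 and 21.9 CPM, POLA1 at 30.8 and 20.7 CPM, RPA3 at 45.6 and 36.5 CPM and CHAF1B at 42.5 and 35.8 CPM, with log2 changes of -1.10, -1.07, -1.001, -0.97 and -0.85. The 6 genes not called were RFC1, RFC2, POLD2, POLE, RPA1 and RPA2.

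**Figure D4:**
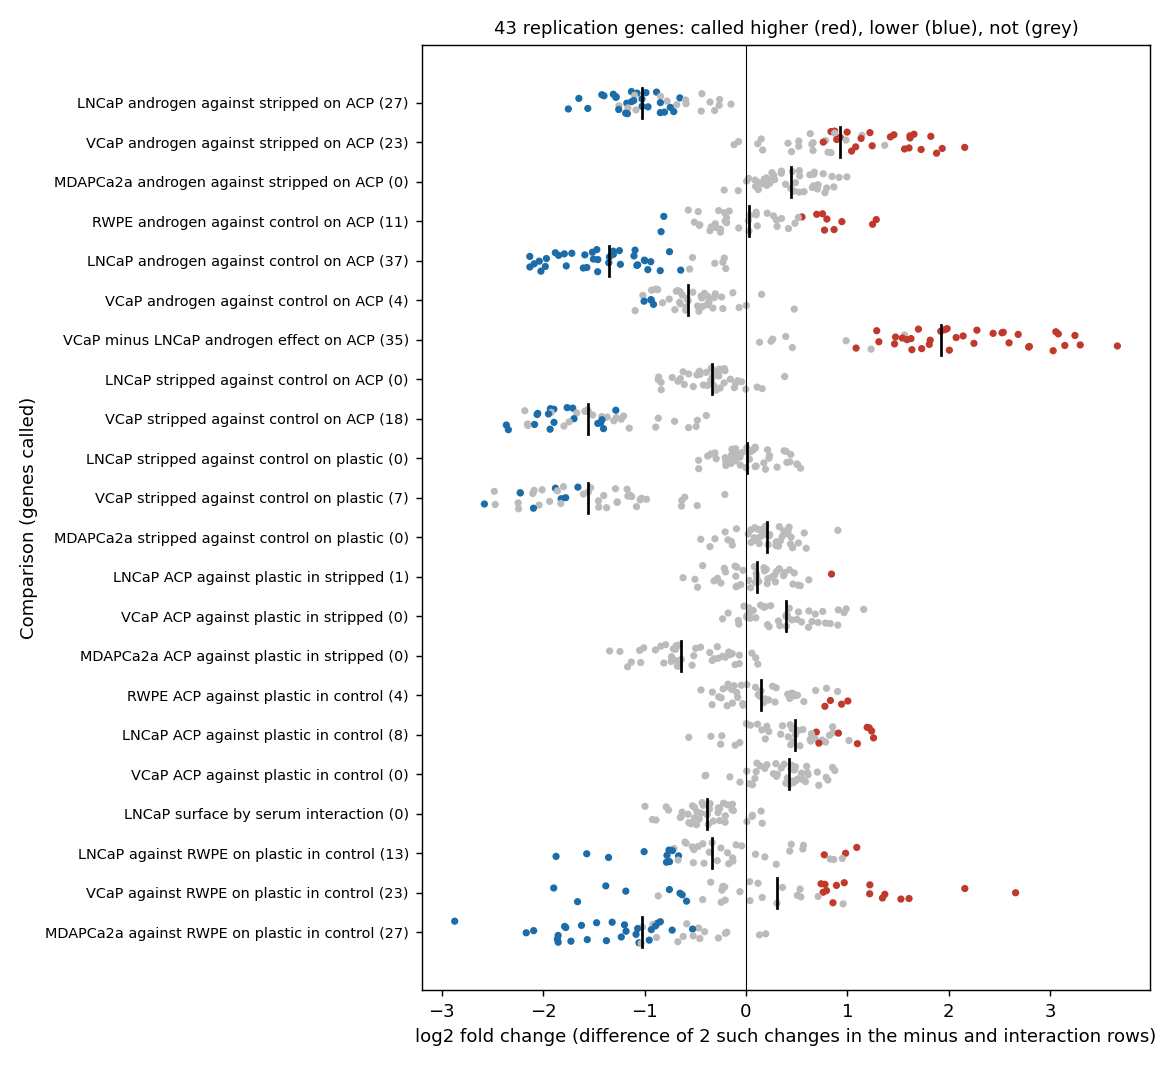
Log2 changes of the 43 genes (points) in each of the 22 comparisons, red or blue where called higher or lower and grey where not, with the median as a black bar and the number called in brackets. The medians run from -1.56 for VCaP in stripped against control medium on ACP to 1.92 for the difference of the androgen effects.

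On plastic, stripped serum was compared with plastic control, so the differences between libraries named above cannot be told apart from the serum. In VCaP, 7 genes were called lower in the single stripped library (MCM3, MCM5, CDT1, POLA2, POLD1, TK1 and UHRF1), with a median of -1.55 over the 43 and 0.416% of all genes called lower (0.89% in either direction). TK1 again fell most. It was at 145 and 269 CPM in plastic control and 33.5 CPM in stripped serum (-2.58 ± 0.50, adjusted p 0.0491). The stripped library lay below both control libraries for all 43 genes, where the groups were separate for 78% of all genes, and in this arm 1 library is assumed to vary like the others. The calls rest on that 1 library and on the settings: the count was 17 without plastic control replicate 1, 4 without replicate 2, 1 with RLE size factors, 0 with a replicate block, 0 with offsets for GC and length, 31 in the fit of all lines, 33 by DESeq2 and 35 without the count filter. In LNCaP and MDAPCa2a none of the 43 was called by edgeR on plastic, with medians of 0.01 and 0.21, 1 gene in each at an unadjusted p below 0.05, and 9.45% (4.61% higher, 4.84% lower) and 1.58% of all genes called (0.881% higher, 0.697% lower). DESeq2 called 1 in LNCaP. LNCaP CDC6, as an example, was at 47.3 and 59.2 CPM in plastic control and 35.3 and 47.7 CPM in stripped serum on plastic, and MDAPCa2a CDC6 at 23.5 and 38.7 CPM and 36.5 and 16.4 CPM in turn, with overlapping groups in both.

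MDAPCa2a, the other line from bone, gave no call with androgen on ACP. None of the 43 genes, and 0 of 13626 genes tested (0%), passed the threshold in edgeR, and none of the 43 had an unadjusted p below 0.05. The median log2 change was 0.44, with 41 positive, and the groups did not overlap for 19 genes (22.7% of all genes). CDC6 was at 2.54 and 21.8 CPM in stripped serum and 23.7 and 20.7 CPM with androgen, E2F1 at 1.97 and 22.6 CPM without and 18.4 and 24.4 CPM with androgen, and RRM2 at 5.98 and 43.1 CPM without and 46.7 and 43.95 CPM with androgen. Stripped replicate 1 was far below the 3 other libraries for each of these genes, and the androgen libraries lay close to stripped replicate 2. CDT1 had the largest change, from 3.75 and 18.8 CPM to 19.1 and 26.6 CPM (0.995 ± 0.64, adjusted p 0.968). Others were nearly even. PCNA was at 76.8 and 74.2 CPM without and 106 and 72.6 CPM with androgen (highest in androgen replicate 1), POLA1 at 18.1 and 23.99 CPM without and 20.7 and 22.7 CPM with androgen, and PRIM1 at 10.5 and 10.7 CPM without and 12.5 and 11.2 CPM with androgen. The median over the 43 genes was 0.07 without stripped replicate 1 and 0.91 without stripped replicate 2. Of the remaining genes given by library, TK1 was at 7.06 and 41.7 CPM without and 40.00 and 45.8 CPM with androgen, TYMS at 9.48 and 21.7 CPM without and 26.2 and 23.8 CPM with androgen, MCM2 at 14.4 and 26.7 CPM without and 30.5 and 30.1 CPM with androgen, and CDC45 at 2.16 and 12.7 CPM without and 15.1 and 13.5 CPM with androgen. These too were lowest in stripped replicate 1.

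RWPE, which has no stripped group, was compared on ACP between androgen and control medium. The treatment protocol puts stripped serum in the androgen medium, while the RWPE labels name only the androgen, so an effect of serum and one of androgen cannot be told apart. Of the 43 genes 9 were higher and 2 lower, where 11% of all genes were called higher, 8.05% lower and 19.1% in either direction, and the median log2 change was 0.03. RFC4 had the largest rise, from 84.4 and 85.3 CPM to 261, 226 and 124 CPM in the 3 androgen libraries (1.29 ± 0.28, adjusted p 0.0197). POLE2 was at 15.6 and 16.7 CPM in control medium and 46.5, 40.2 and 26.7 CPM with androgen (1.25 ± 0.23, adjusted p 0.017), and PRIM1 at 73.8 and 83.2 CPM in control medium and 170.2, 158 and 119 CPM with androgen (0.95 ± 0.20, adjusted p 0.0179). In all 3 genes androgen replicate 3 was the lowest of the androgen libraries and still above both control libraries. The groups were separate for 49.4% of all genes in either direction. RFC3 was at 43.3 and 42.5 CPM in control medium and 82.4, 78.1 and 60.1 CPM with androgen, RPA3 at 69.2 and 64.6 CPM in control medium and 131, 107 and 101 CPM with androgen, GINS2 at 49.3 and 43.8 CPM in control medium and 83.8, 82.1 and 57.4 CPM with androgen, and CDC45 at 20.4 and 17.97 CPM in control medium and 26.9, 30.5 and 25.9 CPM with androgen. These 4, GINS1 and RPA2 make up the rest of those called higher. UHRF1 was the largest fall, from 48.2 and 35.5 CPM to 17.5, 23.1 and 28.5 CPM (-0.84 ± 0.21, adjusted p 0.0245), and CDT1 went from 167 and 131 CPM to 67.8, 109.7 and 73.2 CPM (-0.81 ± 0.22, adjusted p 0.0314). None of the other genes was called. Among them PCNA was at 272 and 266 CPM in control medium and 428, 441 and 268 CPM with androgen. MCM2 was at 243 and 185 CPM in control medium and 113, 142 and 172 CPM with androgen. TK1 was at 114 and 94.97 CPM in control medium and 73.4, 93.5 and 84.6 CPM with androgen. The RWPE changes followed the GC content of the transcripts, with Spearman's rho of -0.73 over the 43 genes and -0.53 over all genes, and with offsets for GC and length, chosen after seeing the data, none of the 43 was called. The count was 0 without either control replicate, 5 without androgen replicate 1, 8 without replicate 2 and 25 without replicate 3. Summed basal markers were at 3349, 10950 and 3866 CPM in the androgen libraries and 12540 and 15700 CPM in the controls, and the part of this in the result was not tested.

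**Figure D5:**
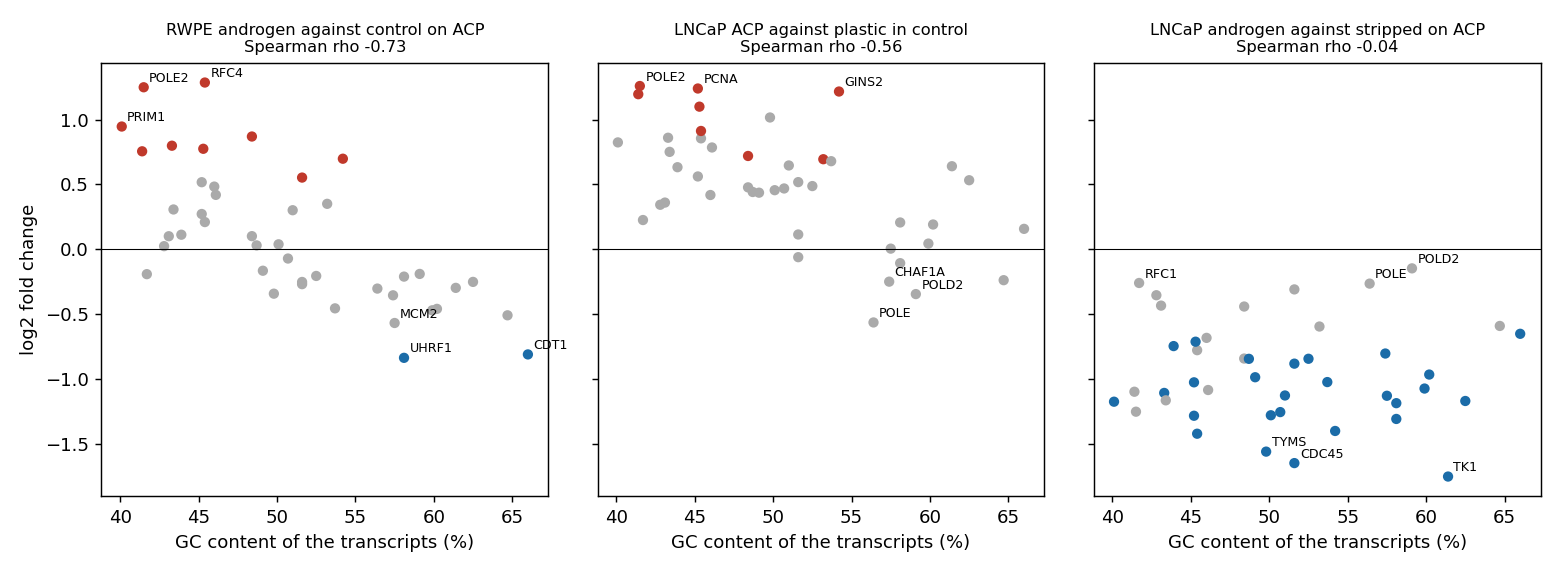
Log2 change of each of the 43 genes against the GC content of its transcripts (percent, GENCODE annotation), for 3 comparisons, coloured where called. Changes fall with GC content in RWPE with androgen (rho -0.73) and in LNCaP on ACP against plastic in control medium (rho -0.56), and not in LNCaP with androgen (rho -0.04).

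In stripped serum, where both surfaces have libraries of the same kind, ACP against plastic gave 1 called gene in LNCaP (6.12% of all genes, 4.32% higher and 1.8% lower), none in VCaP (0%) and none in MDAPCa2a (0.00734%) by edgeR. Unadjusted p values below 0.05 were found for 5 of the 43 genes in LNCaP, for 2 in VCaP and for 5 in MDAPCa2a. The LNCaP gene was RFC2, at 58.3 and 51.9 CPM on plastic and 101 and 91.9 CPM on ACP (0.84 ± 0.19, adjusted p 0.028). All its ACP libraries lay above the plastic ones, where the groups were separate for 54.8% of all genes in either direction. The medians over the 43 genes were 0.11 for LNCaP, 0.40 for VCaP and -0.64 for MDAPCa2a. The VCaP plastic group is a single library, so the absence of calls in VCaP says little about the surface. In MDAPCa2a 13 genes were called without ACP stripped replicate 2, and the protein coating of the plastic differed as well. In control medium the plastic control libraries enter. There 8 genes were higher on ACP in LNCaP, where 6.74% of all genes were called higher and 12.6% in either direction, 4 were higher in RWPE (2.83% higher, 1.33% lower and 4.16% in either) and none was called in VCaP (0.0448% in either direction, 3 of the 43 at an unadjusted p below 0.05). The LNCaP genes were GINS1, GINS2, PCNA, RFC2, RFC4, POLE2, RPA2 and RPA3. POLE2 rose most, from 2.98 and 3.66 CPM to 8.76 and 6.02 CPM (1.26 ± 0.35, adjusted p 0.04). PCNA was at 90.7 and 114 CPM on plastic and 284 and 166 CPM on ACP (1.24 ± 0.28, adjusted p 0.0211), and RPA3 at 19.3 and 21.8 CPM on plastic and 45.6 and 36.5 CPM on ACP (1.10 ± 0.18, adjusted p 0.00988). The groups were separate for all 3 genes, as they were for 67.1% of all genes. The RWPE genes were RRM2, TYMS, RPA3 and E2F1. TYMS rose most, from 24.6 and 22.7 CPM to 48.4 and 44.8 CPM (1.01 ± 0.19, adjusted p 0.0202), RRM2 was at 72.1 and 76.5 CPM on plastic and 129 and 131 CPM on ACP, and E2F1 at 39.6 and 40.7 CPM on plastic and 72.2 and 63.1 CPM on ACP. Both plastic libraries lay below both ACP libraries in each, where the groups were separate for 67.2% of all genes in either direction. Leaving out 1 library gave 0 to 16 genes in LNCaP, with 16 without ACP control replicate 2 and 0 without any 1 of the 3 others, and 0 in RWPE whichever library was left out. The LNCaP count was 21 without the count filter, 15 by DESeq2 and 2 in the fit of all lines. The LNCaP changes in control medium followed GC content (rho -0.56 over the 43 genes, -0.4 over all genes). With offsets for GC and length 5 of the 8 genes were still called. In stripped serum the LNCaP changes followed it too (-0.6 over the 43 genes, -0.4 over all genes), and RFC2 was still called with the offsets. The values in stripped serum were -0.44 and -0.47 for MDAPCa2a and -0.21 and -0.17 for VCaP. The interaction of surface and serum in LNCaP gave no call among the 43 by edgeR (0.307% of all genes), with a median of -0.38 and 4 at an unadjusted p below 0.05.

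Levels were then compared between lines on plastic in control medium, where all libraries are of the plastic control kind. Control medium is each line's usual medium, serum-free for RWPE, and the MDAPCa2a plastic carried a protein coating. Line and medium therefore cannot be told apart here, nor line and coating for MDAPCa2a. MDAPCa2a had 27 of the 43 genes below RWPE and none above, where 28.4% of all genes were called lower and 56.7% in either direction. MCM2 differed most, at 247 and 245 CPM in RWPE and 29.6 and 37.6 CPM in MDAPCa2a (-2.87 ± 0.32, adjusted p 2.76e-08). VCaP had 15 genes above RWPE and 8 below (32.1% of all genes higher, 30.3% lower, 62.4% in either direction). POLA2 was the largest rise (2.66 ± 0.24, adjusted p 6.46e-10) and CDT1 the largest fall, with 90.1 and 98.1 CPM in RWPE and 21.00 and 29.5 CPM in VCaP (-1.90 ± 0.44, adjusted p 0.000623). LNCaP had 3 above and 10 below (29.5% of all genes higher, 27.9% lower, 57.4% in either direction), with POLE2 the largest fall, at 11.7 and 12.7 CPM in RWPE and 2.98 and 3.66 CPM in LNCaP (-1.87 ± 0.43, adjusted p 0.000612), and GINS4 the largest rise (1.09 ± 0.37, adjusted p 0.0137). RPA3 was lower than in RWPE in all 3 cancer lines (-0.78, -1.66 and -1.73), as were PRIM1 (-1.57, -0.65 and -2.17) and RFC4 (-1.004, -1.18 and -2.09). POLD2 was higher in LNCaP (0.77) and VCaP (1.37) and not called in MDAPCa2a (0.20). The 3 contrasts share the RWPE libraries. For VCaP, 13 genes were called without RWPE replicate 1 and 14 without replicate 2, and for LNCaP 8 without its replicate 1.

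Over the 17 group means, centred on the mean of each line, most of the 43 genes varied together. The correlation of each gene with the mean of the other 42 had a median of 0.91, and 22 genes reached 0.9. ORC1 (0.99) and MCM10 (0.98) followed the shared pattern most closely. POLE had the lowest value (0.46), followed by RFC1 (0.53), POLD2 (0.59), RPA3 (0.64), RPA1 (0.66) and RPA2 (0.68). The points share libraries and scaling, so these values describe the 17 groups and carry no test. Of these 6 genes, RPA3 was called with androgen in both LNCaP and VCaP and the others in neither.

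Genes of the same pathway outside the 43 were read from a list of 46 other replication genes. In LNCaP 11 of the 46 fell with androgen and none rose (median -0.63), in VCaP 11 rose and none fell (median 0.67), and the difference between the lines was called for 24, all higher in VCaP. Over all genes 3.96% were called lower in LNCaP, 8.67% higher in VCaP and 5.39% higher in the difference, the background for this list and the next. PCLAF, which binds PCNA, changed by -1.60 ± 0.39 (SE, adjusted p 0.0305) in LNCaP and 1.76 ± 0.43 (adjusted p 0.022) in VCaP. ASF1B, a histone chaperone, changed by -1.44 ± 0.30 (adjusted p 0.0176) and 1.40 ± 0.28 (adjusted p 0.00983). TIMELESS, of the fork protection complex, changed by -0.77 ± 0.17 (adjusted p 0.0191) and 1.18 ± 0.27 (adjusted p 0.017). A list of 30 mitosis genes, whose products act after replication, gave 15 lower in LNCaP (median -1.34), 24 higher in VCaP (median 1.63) and a called difference for 28. CENPA, the centromeric histone, changed by -1.94 ± 0.39 (adjusted p 0.0143) in LNCaP, and CDC20, an activator of the anaphase-promoting complex, by 2.40 ± 0.36 (adjusted p 0.00367) in VCaP. Like the counts of the 43 genes, these rest on single libraries, with 0 of the 46 and 0 of the 30 called in LNCaP without stripped replicate 1, and 0 of the 46 and 7 of the 30 in VCaP without its stripped replicate 1.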

How the data were processed

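The authors deposited unnormalized whole-number read counts for 26336 gene symbols in 34 libraries. Per the submitters' processing notes STAR, HTSeq and hg19 were used. Versions, gene models and strand setting were not given in the sources used here. Without strand, reads of overlapping genes cannot be told apart. Per the labels' protocols, libraries were made with poly(A) selection.

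Groups follow the sample titles. Counts were tested in R 4.3.3 with edgeR 4.0.16 (F test of quasi-likelihood fits with TMM scaling, after filterByExpr with a minimum count of 10) over all genes passing the filter, within each line (residual degrees of freedom 4 or 5), or over all lines (17) for line comparisons and the difference of androgen effects. The threshold was a Benjamini-Hochberg adjusted p below 0.05, and every p given with a gene comes from this test. The SE is the absolute log2 change divided by the square root of F. Log2 CPM used a prior count of 1. The biological coefficient of variation was 16.8% to 24.9% within lines. In pairs of replicates chi-square per gene was at least 10.7, so none was a copy.

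All 43 genes may be named. A set of 21, chosen by role, and the called genes with the largest rise and fall are given by library for LNCaP and VCaP on ACP and, elsewhere, where a comparison turns on them. The 43 genes and the 3 lists of other genes were chosen with earlier results of these data known. Promoters come from RefSeq (GRCh38.p14), and GC content and length from GENCODE transcripts, matched for 24457 of 26336 genes (92.9%).

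Alternatives were RLE size factors, no count filter, a replicate block, DESeq2 1.42.0, a fit of all lines, leaving out each library and, chosen after seeing the data, per-library offsets for GC content and length, smoothed with lowess at span 0.3. The steps were tested on simulated counts.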

Additional observations from a re-analysis of the deposited data

Results flagged for a closer look

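The effect of androgen against stripped serum on ACP differed between VCaP and LNCaP by the interaction term of edgeR's fit of all lines, for 35 of the 43 genes. This contrast was known when the genes were chosen. Over all genes tested, the difference was called higher in VCaP for 5.39% and in either direction for 10.9%. The difference (VCaP minus LNCaP, log2) was 1.98 for MCM2, 2.80 for ORC1, 2.69 for CDC6 and 3.06 for MCM10. It was 2.53 for GINS2 and 3.25 for CDC45, 2.14 for PCNA and 2.07 for RFC3. PRIM1 had 1.82 and POLE2 2.60, FEN1 2.25 and LIG1 1.47, and RPA3 1.73. RRM2 had 3.30, TYMS 3.15 and TK1 3.66, CHAF1B 1.64 and UHRF1 2.01, and E2F1 3.03. Some of these calls depend on single libraries, those of LIG1 and UHRF1 most. With 1 library left out, the difference ran from 1.12 to 1.93 for LIG1 and from 1.66 to 2.47 for UHRF1. Each of these 19 genes was lower with androgen in both LNCaP libraries and higher in both VCaP libraries. The same groups were separate, in either direction, for 56% of all genes in LNCaP and 61.4% in VCaP.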

How the results depend on the processing

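Numbers are of the 43 genes called, and the cause of each change was not tested except where fewer samples or genes enter. Shares of all genes are given for the main edgeR fits only, and not for these settings. Replicate numbers showed no uniform pairing: over 23 pairs of groups the deviations of same-numbered libraries correlated at -0.38 to 0.32, 6 above 0.1 and 6 below -0.1. These correlations cannot exclude pairing between some of the groups. With a replicate block the count was 23 for RWPE with androgen, 34 for VCaP stripped on ACP, 0 for VCaP stripped on plastic and 11 for RWPE on ACP against plastic, and stayed within 1.5 times elsewhere. For VCaP against RWPE the block left 15 of the 23 calls and gave 16 in all, 7 higher and 9 lower. In the fit of all lines it was 11 for LNCaP androgen against stripped, 5 for RWPE with androgen, 9 for VCaP androgen against control, 39 and 31 for VCaP stripped on ACP and plastic, and 1 and 2 for RWPE and LNCaP on ACP against plastic. Without the count filter it was 12 for VCaP androgen against control, 8 and 38 for LNCaP and VCaP stripped on ACP, 35 for VCaP stripped on plastic, 2 and 1 for ACP against plastic of LNCaP and MDAPCa2a in stripped serum, 21 for LNCaP in control medium and 1 for the LNCaP interaction. DESeq2 gave 10 for VCaP androgen against control, 2 and 38 for LNCaP and VCaP stripped on ACP, 1 and 33 on plastic, and 2 and 15 for LNCaP on ACP against plastic in stripped and control medium. Offsets for GC and length gave 0 for RWPE with androgen, 2 and 32 for LNCaP and VCaP stripped on ACP, and 1 and 0 on plastic, and turned POLA1 with androgen in VCaP to 0.0144 on the log2 scale (adjusted p 0.964). RLE gave 1 for VCaP stripped on plastic.

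Leaving out 1 library gave 0 to 33 for LNCaP and 0 to 17 for VCaP androgen against stripped, 23 to 34 for their difference, 0 to 25 for RWPE with androgen, 25 to 38 and 0 to 0 for LNCaP and VCaP androgen against control, 0 to 4 and 0 to 22 for LNCaP and VCaP stripped on ACP, 4 to 17 for VCaP stripped on plastic, 0 to 1 and 0 to 13 for LNCaP and MDAPCa2a on ACP in stripped serum, 0 and 0 to 16 for RWPE and LNCaP in control medium, and 8 to 11, 13 to 23 and 19 to 25 for LNCaP, VCaP and MDAPCa2a against RWPE. With 2 libraries a group and 4 or 5 residual degrees of freedom, single-gene calls near the threshold change with 1 library. Over the genes called in a comparison, and the 21 chosen by role in the androgen comparisons of LNCaP and VCaP and their difference, 2002 alternative values kept direction and side of the threshold, 522 no longer passed it, 30 newly passed it and 1 changed sign. The 3 other lists were computed under the same alternatives, and with them the LNCaP androgen count of the 46 other replication genes ran from 0 to 26.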

Other observations

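Cell cycle regulators were read from a list of 30 genes. With androgen against stripped serum on ACP, 1 rose and 5 fell in LNCaP, and 10 rose and 2 fell in VCaP (edgeR), where 7.73% and 17.5% of all genes were called in either direction. CDK6, a cyclin D partner, rose in both lines, by 2.05 ± 0.40 (SE, adjusted p 0.0134) in LNCaP and 2.41 ± 0.50 (adjusted p 0.0118) in VCaP on the log2 scale. CCNA2, the S-phase cyclin, changed by -1.45 ± 0.39 (adjusted p 0.0459) in LNCaP and 1.82 ± 0.43 (adjusted p 0.0192) in VCaP. CKS1B, a cyclin-dependent kinase subunit, changed by -1.11 ± 0.29 (adjusted p 0.0377) and 1.67 ± 0.35 (adjusted p 0.0117), and E2F2 by -1.03 ± 0.28 (adjusted p 0.0485) and 1.73 ± 0.43 (adjusted p 0.0236). CDKN2A, which encodes an inhibitor of CDK4 and CDK6, fell in VCaP by 1.99 ± 0.40 on the log2 scale (adjusted p 0.0106). These genes were named after their values were seen. Without stripped replicate 1, 0 of the 30 were called in LNCaP and 3 in VCaP.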
